A study of Homo sapiens with 12 samples.

Results

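The genes described here encode 9 RNA-binding proteins that set how long messenger RNAs with AU-rich elements or regulatory stem-loops survive: ZFP36, ZFP36L1, ZFP36L2, ELAVL1, KHSRP, ZC3H12A, RC3H1, TIA1 and TIAL1. They were taken by gene symbol from a table of 19973 genes, and all 9 were found in it. RNA was sequenced from H460 and A549, established lines of human non-small cell lung cancer, in 4 groups of 3 libraries each, 12 in all. Both lines carry the genotype label WT, though as tumour lines both are known to have inactivating KEAP1 mutations, and were either non-treated (control) or treated with 10 µM ISP-I, isovalerylspiramycin I, a macrolide component of carrimycin, for 48 h. Each line stands for a single tumour. Nothing in the labels says that the libraries of a group came from separate cultures, so the p-values below measure the spread between libraries, which may be technical.

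An AU-rich element is a stretch of the 3′ untranslated region (3′ UTR) of short-lived mRNAs, such as those of cytokines and immediate early genes, built from repeats of AUUUA. ZFP36 (tristetraprolin), ZFP36L1 and ZFP36L2 bind UAUUUAU and bring in the enzymes that remove the poly(A) tail, and KHSRP also promotes decay. ELAVL1 (HuR) binds similar elements and generally stabilizes the mRNA, whereas TIA1 and TIAL1 repress its translation and gather it in stress granules. ZC3H12A (Regnase-1) is an endonuclease, and RC3H1 (Roquin-1) an adaptor for deadenylases, and both recognise stem-loops in the 3′ UTRs of inflammatory mRNAs.

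Depth was similar over the libraries, at 14225849 to 17874422 reads on genes. Every library within a group differed from the others by more than counting noise, and the widest pair lay in the H460 ISP-I group. Of 6 epithelial markers, 3 to 5 reached 1 FPKM (reads scaled by gene length and by the depth of the library) in each group, and they summed to 327.4 to 432.9 FPKM in H460 and 628.1 to 1252 FPKM in A549, although CDH1 was at 0 in the H460 controls. Sums stayed at or under 6.43 FPKM for 6 leukocyte markers, 0.389 FPKM for 4 endothelial markers and 11.1 FPKM for 6 fibroblast markers, and CD3E, which defines T cells, was at 0 in every group. Some of these sums differed between control and ISP-I: in H460 those of leukocyte markers were 5.17 to 6.43 and 0.974 to 2.01 FPKM and those of fibroblast markers 9.97 to 11.1 and 5.05 to 5.89 FPKM, and in A549 those of epithelial markers were 924.2 to 1252 and 628.1 to 659.2 FPKM. Among the single markers in H460, CD14 averaged 5.92 FPKM in controls and 1.26 FPKM after ISP-I. COL3A1 averaged 8.60 and 2.25 FPKM, whereas PDGFRB went from 0.543 to 2.40 FPKM. The part of these markers in the results was not tested. The members had 268 to 9065 reads in each library.

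Of the 9 members, 7 carry in their own 3′ UTR the motif that the ZFP36 proteins bind, as do several of the target mRNAs named below. These sites are shown because the results set the binding proteins beside their target mRNAs. Each line gives 30 bases of the 3′ UTR of the MANE Select transcript (GENCODE v44), 5′ to 3′ on the strand of the gene, read from the hg38 genome. The capitals mark every complete UAUUUAU in the window.
ZFP36, chr19:39409188-39409217, + strand: ccuuUAUUUAUgacgacuuUAUUUAUucua
ZFP36L1, chr14:68788336-68788365, − strand: cuuaucaaaacgUAUUUAUugccaaacuau
ZFP36L2, chr2:43223448-43223477, − strand: aacuauuuaacuUAUUUAUuaucuugugaa
ELAVL1, chr19:7961839-7961868, − strand: uUAUUUAUaccUAUUUAUgUAUUUAUUUAU
CXCL8, chr4:73743109-73743138, + strand: aaccUAUUUAUUAUUUAUgUAUUUAUuuaa
CXCL2, chr4:74097586-74097615, − strand: cuucUAUUUAUUUAUUUAUUUAUUUAUuug
IER3, chr6:30743648-30743677, − strand: uaauuaaUAUUUAUaugUAUUUAUguacgu
FOS, chr14:75282059-75282088, + strand: guguuuuuaauuUAUUUAUuaagauggauu
TNFAIP3, chr6:137882297-137882326, + strand: uguaauucacuuUAUUUAUuuuauuacaaa

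Over the whole 3′ UTR, the heptamer occurred 3 times in each of ZFP36 (708 bases), ZFP36L1 (1871 bases) and ZFP36L2 (1917 bases), 5 times in ELAVL1 (4910 bases), 2 times in RC3H1 (7637 bases) and once each in TIA1 (3275 bases) and TIAL1 (2200 bases). KHSRP (1922 bases) and ZC3H12A (766 bases) had none. Overlapping copies were counted singly. For comparison, 32.11% of 18780 human 3′ UTRs held the heptamer and 68.31% held the shorter AUUUA, at a median length of 1088 bases. Among the 5519 UTRs of 500 to 1500 bases the share with the heptamer was 24.28%. Of the members only ZFP36 and ZC3H12A lie in that range. The share among UTRs as long as those of the other members was not computed, so no excess of the heptamer can be read from these shares. Of the listed target mRNAs, only those named below for the largest changes were searched. CXCL2 held 8 copies in 716 bases, CXCL8 4 in 1252 bases and IER3 4 in 737 bases. CXCL1 held 4, FOS, PIM3 and TNFAIP3 held 2 each, JUN held 1, and CDKN1A and ID1 held 0. A match is a string of letters and was not tested for binding.

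In H460, 5 members rose and 3 fell after ISP-I, and TIAL1 did not pass the test. The mRNAs of the decay-promoting ZFP36 family and of both stem-loop binders rose. Those of the stabilizer ELAVL1, the decay factor KHSRP and the translational repressor TIA1 fell. Protein of the members was not measured in these libraries. In A549 ZFP36 alone rose, whereas ELAVL1, KHSRP, TIA1 and TIAL1 fell and the remaining 4 did not pass. Here "rose" and "fell" stand for an adjusted p under 0.05 in limma, which was run on log2(FPKM + 1) over every gene averaging 0.1 FPKM or more in the line, with p-values adjusted by Benjamini-Hochberg over all of them. In H460 that was met by 27.6% of 13423 genes upward and 41.5% downward, and in A549 by 30.5% of 13705 genes upward and 27.0% downward. With a change above 2-fold required as well, H460 called 4 members higher (ZFP36, ZFP36L1, ZFP36L2 and ZC3H12A) beside 10.5% of genes, and 1 lower (ELAVL1) beside 15.2%, a call that ended under both other scalings tried, with 0 members lower. In counts these were 1409 genes higher and 2047 lower, which median-of-ratios scaling turned into 1928 and 1441. The same rule in A549 called ZFP36 higher beside 4.20% of genes, and no member lower beside 3.51%. Control and ISP-I libraries did not overlap for any of the 9 members in H460 and for 5 of 9 in A549, where 72.7% and 65.5% of all genes tested were likewise apart. In bulk RNA, fewer cells with a transcript and less of it per cell cannot be told apart.

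**Figure D1:**
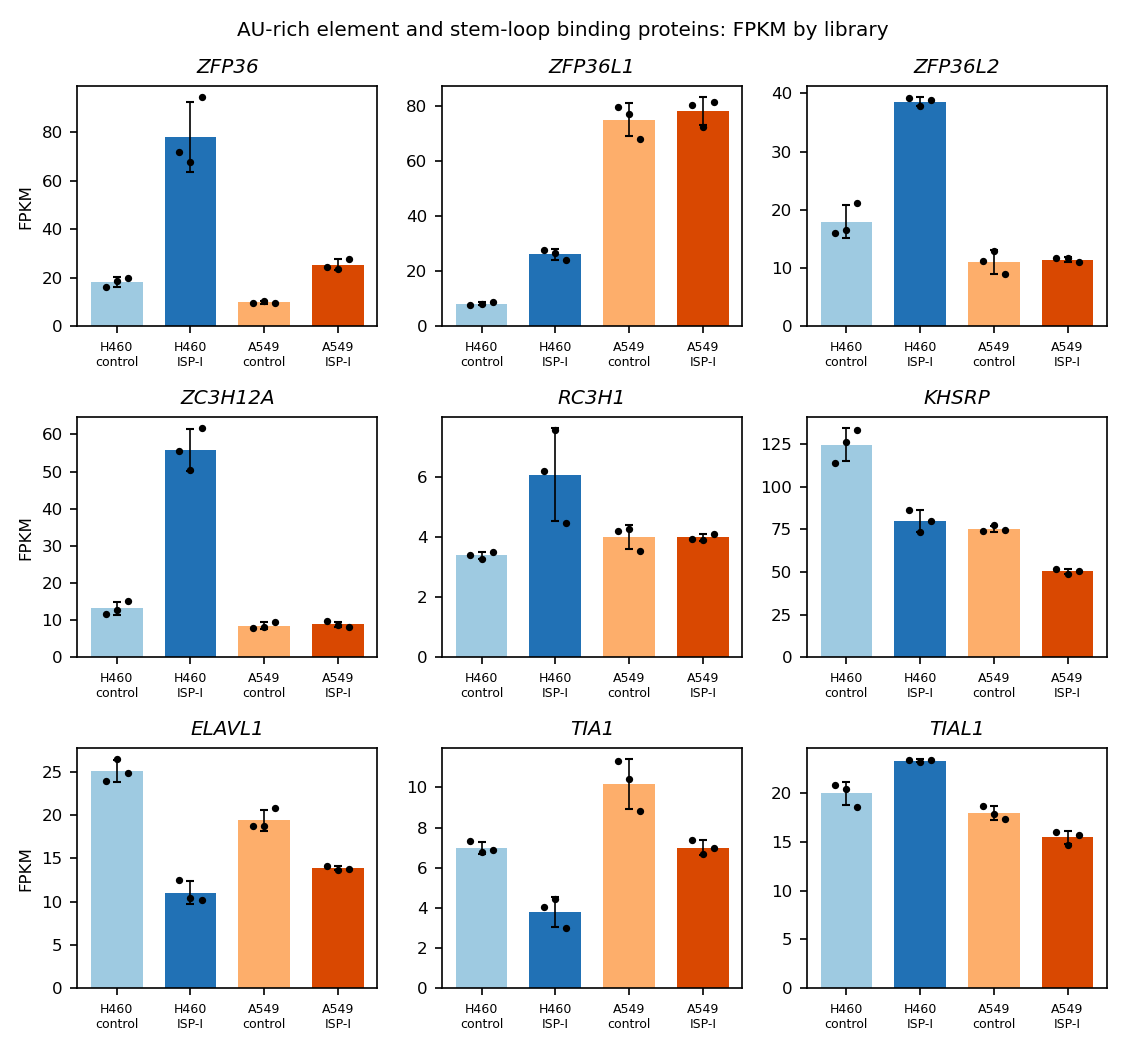
FPKM of each member (y axis, from 0) in the 4 groups (x axis). Bars are means of 3 libraries, error bars SD and points the libraries. ZFP36, ZFP36L1, ZFP36L2 and ZC3H12A were higher in every H460 ISP-I library than in any H460 control, and ZFP36L1 stood between 68.1 and 81.4 FPKM in all 6 A549 libraries.

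ZFP36, the founding member of the tristetraprolin family, lies on the + strand at chr19:39406847-39409412 (hg38). It had the largest rise of any member in A549, and in H460 its rise and that of ZC3H12A lay within a standard error of each other. In H460 its level was 16.1, 18.7 and 20 FPKM in the controls and 71.7, 67.9 and 94.3 FPKM after ISP-I. In A549 it was 9.53, 10.5 and 9.56 FPKM in the controls and 24.3, 23.8 and 27.9 FPKM after ISP-I. The treated libraries lay above all controls in both lines, and the H460 controls lay above all A549 controls. The mean went from 18.3 ± 1.98 to 78.0 ± 14.3 FPKM (SD, n = 3) in the H460 libraries, a log2 fold change of 2.02 (SE 0.155, limma adjusted p = 8.35e-06), and from 9.88 ± 0.570 to 25.3 ± 2.22 FPKM in A549, a log2 fold change of 1.27 (SE 0.0821, limma adjusted p = 8.34e-06). The response was larger in H460 by 0.75 on the log2 scale (SE 0.178, limma interaction adjusted p = 0.00364).

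ZFP36L1, on the − strand at chr14:68787660-68796253, differed most between the controls of the lines. Its level in the controls was 7.85, 8.05 and 8.70 FPKM in H460 and 79.6, 77.1 and 68.1 FPKM in A549. After ISP-I it was 27.8, 26.5 and 23.9 FPKM in H460 and 80.4, 72.2 and 81.4 FPKM in A549. All 3 treated H460 libraries were above their controls and still under every A549 library, and in A549 the groups overlapped. Mean levels were 8.20 ± 0.444 and 26.1 ± 1.97 FPKM in H460 (log2 fold change 1.55, SE 0.111, limma adjusted p = 5.61e-06) and 74.9 ± 6.03 and 78.0 ± 5.05 FPKM in A549 (0.06, adjusted p = 0.579).

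ZFP36L2, on the − strand at chr2:43222402-43226606, had 16.1, 16.5 and 21.2 FPKM in the H460 controls and 39.2, 37.8 and 38.8 FPKM after ISP-I. In A549 it had 11.3, 12.9 and 8.91 FPKM without and 11.7, 11.7 and 11.0 FPKM with ISP-I. The rise in H460 stood clear of the spread, with a log2 fold change of 1.08 (SE 0.131, limma adjusted p = 0.000117), and the A549 groups overlapped (0.06, adjusted p = 0.683). An unnamed long noncoding RNA gene overlaps ZFP36L2 on the opposite strand in the annotation, and the strand setting of the counting is not stated, so reads of the pair could not be told apart. The same holds for ELAVL1 and its opposite-strand neighbour. ZFP36L1 also overlaps an unnamed long noncoding RNA gene, on its own strand, so strand could not separate their reads.

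Added together, the 3 family members amounted to 40.1, 43.2 and 49.9 FPKM in the H460 controls and 138.7, 132.2 and 157.0 FPKM after ISP-I. In A549 the sums were 100.4, 100.5 and 86.6 FPKM in the controls and 116.4, 107.7 and 120.2 FPKM after ISP-I. The family was thus lower in H460 than in A549 without ISP-I and higher with it, in every library. Its make-up differed as well. ZFP36L1 made up 17.4 to 19.6% of the sum in H460 controls and 76.7 to 79.2% in A549 controls. After ISP-I the share of ZFP36 was 51.4 to 60.1% in H460, where it had been 40.1 to 43.3%, and 20.8 to 23.2% in A549, where it had been 9.49 to 11.0%. These sums and shares are descriptions without a test.

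**Figure D2:**
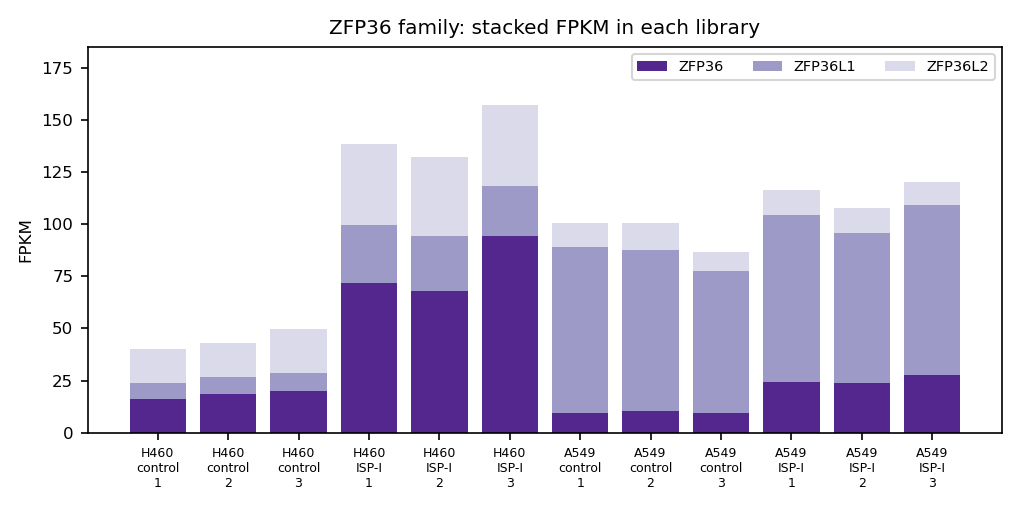
Stacked FPKM (y axis) of ZFP36, ZFP36L1 and ZFP36L2 in each of the 12 libraries (x axis). The stacks of the 3 H460 ISP-I libraries reach 132.2 to 157.0 FPKM with ZFP36 as the largest part, and ZFP36L1 is the largest part in all 6 A549 libraries.

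ZC3H12A encodes the endonuclease Regnase-1, which cuts stem-loops in mRNAs such as that of IL6, and lies on the + strand at chr1:37474580-37484377. Its level was 11.7, 12.8 and 15.2 FPKM in H460 controls and 55.4, 50.3 and 61.6 FPKM after ISP-I. In A549 it was 7.82, 8.25 and 9.53 FPKM in controls and 9.66, 8.58 and 8.28 FPKM after ISP-I. The H460 groups were far apart and the A549 groups overlapped. The log2 fold change was 2.0 in H460 (SE 0.135, limma adjusted p = 4.31e-06) and 0.05 in A549 (adjusted p = 0.690), and the difference of 1.95 between the responses was the largest of any member (SE 0.160, limma interaction adjusted p = 1.31e-06).

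The promoters of both strongly changed genes, ZFP36 and ZC3H12A, are shown for motifs of factors that act on immediate early and inflammatory genes. The 250 bases before the RefSeq start (GRCh38.p14) are given 5′ to 3′ on the + strand, and the capitals mark motif matches. ELAVL1 and ZFP36L2 had no entry.
ZFP36, chr19:39406597-39406846: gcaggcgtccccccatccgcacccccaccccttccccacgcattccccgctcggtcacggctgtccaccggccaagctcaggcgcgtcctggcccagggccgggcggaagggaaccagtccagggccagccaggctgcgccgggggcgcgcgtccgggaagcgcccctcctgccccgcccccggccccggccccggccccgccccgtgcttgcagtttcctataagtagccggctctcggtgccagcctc
ZC3H12A, chr1:37474330-37474579: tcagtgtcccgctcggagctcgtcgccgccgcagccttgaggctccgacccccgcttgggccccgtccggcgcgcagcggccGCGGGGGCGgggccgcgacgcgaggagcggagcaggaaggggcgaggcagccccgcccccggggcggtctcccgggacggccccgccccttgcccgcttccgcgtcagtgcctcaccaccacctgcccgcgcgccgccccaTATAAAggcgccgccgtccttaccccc

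ZC3H12A held the EGR-type motif GCGGGGGCG at bases -168 to -160 from the start, a motif found in 4.72% of 35116 promoters, and TATAAA at bases -27 to -22, found in 6.8%. The ZFP36 window held neither. Neither window held GCGTGGGCG (0.72% of promoters), the CRE TGACGTCA (1.65%), the AP-1 motif TGANTCA (6.57%), a CArG box (1.16%) or an NF-kB site (9.96%). Both strands were searched for each motif, apart from TATAAA, which was searched on the strand of the gene. Of the 5 other members with an entry, ZFP36L1 held TGACGTCA at bases -52 to -45 from one of its listed starts and RC3H1 held TATAAA at bases -162 to -157. Both of these windows, chr14:68793417-68793666 and chr1:173993073-173993322, lie inside the annotated gene and not before its 5′ end. A match or its lack says nothing of whether a factor bound there.

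RC3H1, the deadenylase adaptor Roquin-1 at chr1:173931084-174022357 (− strand), was the least abundant member in 3 of the 4 groups. It had 3.42, 3.28 and 3.51 FPKM in H460 controls and 6.19, 7.56 and 4.48 FPKM after ISP-I. In A549 it had 4.21, 4.26 and 3.55 FPKM without and 3.94, 3.92 and 4.11 FPKM with ISP-I. The treated H460 libraries were all above the controls but spread widely, and the A549 groups overlapped. It rose in H460 by 0.66 on the log2 scale (SE 0.164, limma adjusted p = 0.00652) and the A549 value was 0.00 (adjusted p = 0.991).

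ELAVL1, the stabilizer HuR at chr19:7958573-8005659 (− strand), fell in both lines. Its level was 23.9, 26.4 and 24.8 FPKM in H460 controls against 12.5, 10.4 and 10.2 FPKM after ISP-I. In A549 it was 18.7, 18.7 and 20.8 FPKM against 14.1, 13.7 and 13.8 FPKM. No treated library reached its controls in either line. The log2 fold change was -1.12 in H460 (SE 0.119, limma adjusted p = 5.28e-05) and -0.46 in A549 (SE 0.0685, limma adjusted p = 0.000682), and the fall was larger in H460 (difference -0.66, limma interaction adjusted p = 0.000832). In H460 the fall was less than 2-fold with median-of-ratios scaling (-0.85) and with voom on recovered reads (-0.89), and passed the test under both.

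The ratio of the ZFP36 family sum to ELAVL1 sets these destabilizers against a stabilizer at the level of mRNA. It leaves out the decay factor KHSRP, which fell in both lines. The ratio was 1.64 to 2.01 in H460 controls and 11.1 to 15.4 after ISP-I. In A549 it was 4.16 to 5.39 and 7.88 to 8.70. The ranges did not overlap within either line, and H460 lay below A549 in the controls and above it after ISP-I. The ratio was not tested and does not measure protein or binding.

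KHSRP, a decay factor with KH domains at chr19:6413348-6424794 (− strand), had the highest mean of any member in both H460 groups, though its treated libraries overlapped those of ZFP36. It had 114.0, 126.0 and 133.0 FPKM in H460 controls and 86.6, 73.7 and 79.8 FPKM after ISP-I. In A549 it had 73.9, 77.4 and 74.8 FPKM, and 51.9, 48.6 and 50.5 FPKM after ISP-I. It fell in both lines, with a log2 fold change of -0.63 in H460 (SE 0.130, limma adjusted p = 0.00241) and -0.57 in A549 (SE 0.0617, limma adjusted p = 0.000113). The difference of -0.06 (SE 0.127) did not pass the interaction test (limma adjusted p = 0.721). Scaling the libraries by median of ratios left the H460 value at -0.34 and its adjusted p at 0.0501.

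TIA1, at chr2:70209444-70248660 (− strand), had 7.32, 6.79 and 6.86 FPKM in H460 controls and 4.03, 4.43 and 2.99 FPKM after ISP-I. In A549 it had 11.3, 10.4 and 8.84 FPKM against 7.38, 6.67 and 6.96 FPKM. Treated libraries were below all controls in both lines. It fell by 0.74 on the log2 scale in H460 (SE 0.138, limma adjusted p = 0.00137) and by 0.47 in A549 (SE 0.0951, limma adjusted p = 0.00312), without a detected difference between the lines (-0.27, SE 0.166, limma interaction adjusted p = 0.193). The TIA1 and C2orf42 genes overlap on the same strand.

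TIAL1, the close relative of TIA1 at chr10:119571802-119597029 (− strand) had 20.8, 20.4 and 18.6 FPKM in H460 controls and 23.4, 23.2 and 23.4 FPKM after ISP-I, so the groups were apart, although the log2 fold change of 0.22 (SE 0.105) did not pass (limma adjusted p = 0.0948). With median-of-ratios scaling it passed, at 0.50 (limma adjusted p = 0.00349). In A549 it had 18.7, 17.8 and 17.3 FPKM against 16.0, 14.7 and 15.7 FPKM and fell by 0.20 on the log2 scale (SE 0.0675, limma adjusted p = 0.0309). That call was lost without any 1 of A549 control libraries 1 and 2 and ISP-I libraries 1, 2 and 3, at adjusted p 0.0553 to 0.123. TIAL1 over TIA1 was 2.71 to 3.01 in H460 controls and 5.24 to 7.82 after ISP-I, and 1.66 to 1.96 and 2.17 to 2.25 in A549.

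**Figure D3:**
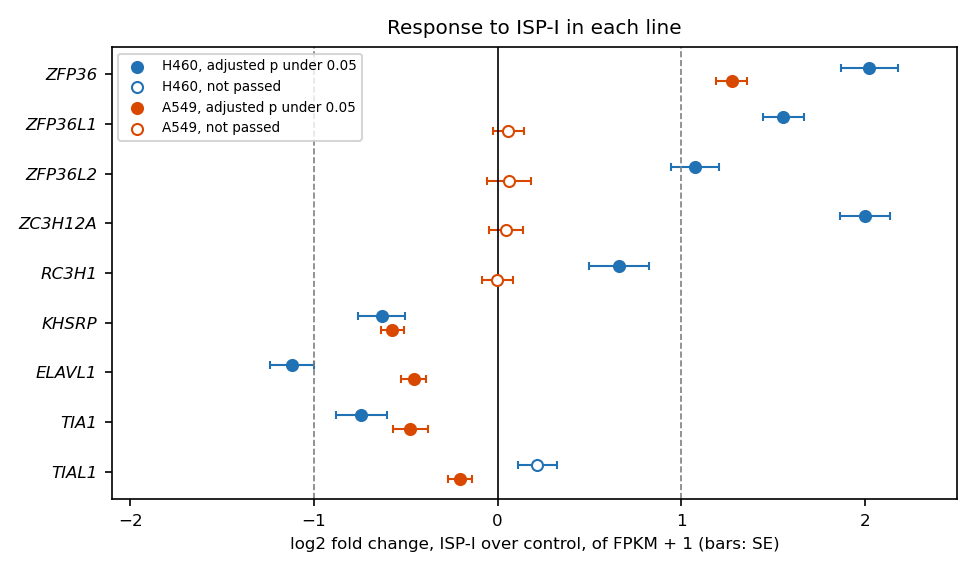
Log2 fold change of FPKM + 1, ISP-I over control (x axis), of each member (y axis) in H460 and A549. Error bars are SE, filled points passed at an adjusted p under 0.05 and dashed lines mark 2-fold. ZFP36, at 2.02 and 1.27, lies past 2-fold in both lines, and ZFP36L1, ZFP36L2, ZC3H12A and RC3H1 lie near 0 in A549.

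The difference between the lines was tested for every gene in a fit over all 12 libraries. The response of 6 members was higher in H460 than in A549 (ZFP36, ZFP36L1, ZFP36L2, ZC3H12A, RC3H1 and TIAL1), beside 18.6% of 13953 genes, and that of ELAVL1 was lower, beside 34.7%. KHSRP and TIA1 did not pass. The difference was 1.5 for ZFP36L1 (SE 0.130, limma adjusted p = 2.04e-06) and 1.01 for ZFP36L2 (SE 0.179, limma adjusted p = 0.000477). Those values are of the log2 scale, and together with ZC3H12A these were the 3 differences above 2-fold, beside 5.93% of all genes upward and 10.1% downward. With median-of-ratios scaling the genes past 2-fold went from 827 higher and 1407 lower to 1300 and 827.

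The lines already differed without ISP-I. Between the controls, 5 members were higher in H460, beside 28.6% of 13532 genes, and 2 were lower, beside 31.6%. ZFP36L1 was far lower in H460 (log2 difference -3.04, SE 0.0907, limma adjusted p = 2.59e-08), and it was the only member past 2-fold, beside 5.64% of genes higher and 8.78% lower. ZFP36 was higher by 0.82 (limma adjusted p = 0.000148), KHSRP by 0.71 (0.000176), ZFP36L2 by 0.66 (0.00501), ZC3H12A by 0.58 (0.00265) and ELAVL1 by 0.35 (0.00663). TIA1 was lower in H460 (-0.48, limma adjusted p = 0.00390), while RC3H1 (-0.18, adjusted p = 0.132) and TIAL1 (0.14, adjusted p = 0.165) did not pass.

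Mean FPKM is scaled by a single length per gene, and the lengths of the transcripts present were not measured, so orders between genes are approximate. Ordered by it, the H460 controls ran from KHSRP over ELAVL1, TIAL1, ZFP36, ZFP36L2, ZC3H12A, ZFP36L1 and TIA1 to RC3H1. The libraries of TIAL1 and ZFP36 overlapped, as did those of ZFP36 and ZFP36L2. After ISP-I, H460 had KHSRP and ZFP36 on top with overlapping libraries, then ZC3H12A, ZFP36L2, ZFP36L1, TIAL1, ELAVL1, RC3H1 and TIA1, all apart. In the A549 controls KHSRP and ZFP36L1 overlapped at the top, ELAVL1 and TIAL1 came next and overlapped, ZFP36L2, TIA1 and ZFP36 also overlapped, and ZC3H12A and RC3H1 were lowest. A549 after ISP-I ran from ZFP36L1 over KHSRP, ZFP36, TIAL1, ELAVL1, ZFP36L2, ZC3H12A and TIA1 to RC3H1, with all neighbours apart.

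The mRNAs on which these proteins are known to act were taken as a list of 38 AU-rich element mRNAs. This list and those below were chosen with earlier results of these data known. How far that choice set their counts and medians was not tested. In H460, 30 of 37 tested rose, 4 fell and 3 did not pass, and 24 were more than 2-fold higher and 2 more than 2-fold lower. In A549, 21 of 35 tested rose, 6 fell and 8 did not pass, with 10 more than 2-fold higher and 1 lower. The shares over all genes at an adjusted p under 0.05 were those given above. They stood at 27.6% up and 41.5% down for H460, and at 30.5% up and 27.0% down for A549. With the 2-fold rule added, H460 had 10.5% of genes up and 15.2% down, against 4.20% up and 3.51% down for A549. Whether the list's counts differed between the lines was not tested. The median log2 fold change was 1.63 in H460, where that of all genes was -0.15, and 0.39 in A549, where that of all genes was 0.02. The list holds stress and inflammatory genes known to be controlled by transcription too, and decay rates were not measured.

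FOS and JUN, subunits of AP-1, had the highest fold changes of log2(FPKM + 1) on this list in H460, a scale that understates the change of genes near 0 in the controls. FOS went from 1.46 ± 0.433 to 96.9 ± 20.4 FPKM (log2 fold change 5.31, SE 0.179, limma adjusted p = 2.23e-07) and JUN from 11.3 ± 0.731 to 386.9 ± 27.9 FPKM (4.97, SE 0.120, limma adjusted p = 6.96e-08). CXCL8, the neutrophil chemokine whose element is printed above, went from 67.0 ± 6.86 to 1755 ± 144.5 FPKM (4.69, SE 0.156, limma adjusted p = 2.16e-07). In A549 CXCL8 stood at 5.27 ± 0.592 and 5.26 ± 0.981 FPKM (-0.01, limma adjusted p = 0.953), while FOS rose from 1.27 ± 0.166 to 5.78 ± 0.808 FPKM and JUN from 36.6 ± 1.64 to 108.5 ± 5.04 FPKM. The response differed between the lines for all 3, by 3.73 for FOS, 3.43 for JUN and 4.70 for CXCL8 on the log2 scale (limma interaction adjusted p = 1.06e-07, 2.55e-09 and 3.89e-09).

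In A549 the highest fold changes on the same scale were those of TNFAIP3, CDKN1A and PIM3, although by the ratio of mean FPKM the low IL6, IL23A, CCL20 and FOS stood above CDKN1A and PIM3. TNFAIP3, the inhibitor A20 of NF-kB signalling, went from 1.94 ± 0.199 to 18.2 ± 0.787 FPKM (2.71, SE 0.0808, limma adjusted p = 3.59e-07). CDKN1A, the cell cycle inhibitor p21, went from 50.3 ± 5.71 to 213.5 ± 8.38 FPKM (2.07, SE 0.0898, limma adjusted p = 1.32e-06), and its 3′ UTR held 0 copies of the heptamer. PIM3, a serine/threonine kinase, went from 13.5 ± 1.83 to 45.8 ± 1.55 FPKM (1.70, SE 0.0962, limma adjusted p = 4.43e-06). All 3 rose more in H460, with log2 fold changes of 3.67 for TNFAIP3, 2.84 for CDKN1A and 3.29 for PIM3, and each difference between the lines passed (limma interaction adjusted p = 0.000243, 0.00317 and 3.46e-05).

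**Figure D4:**
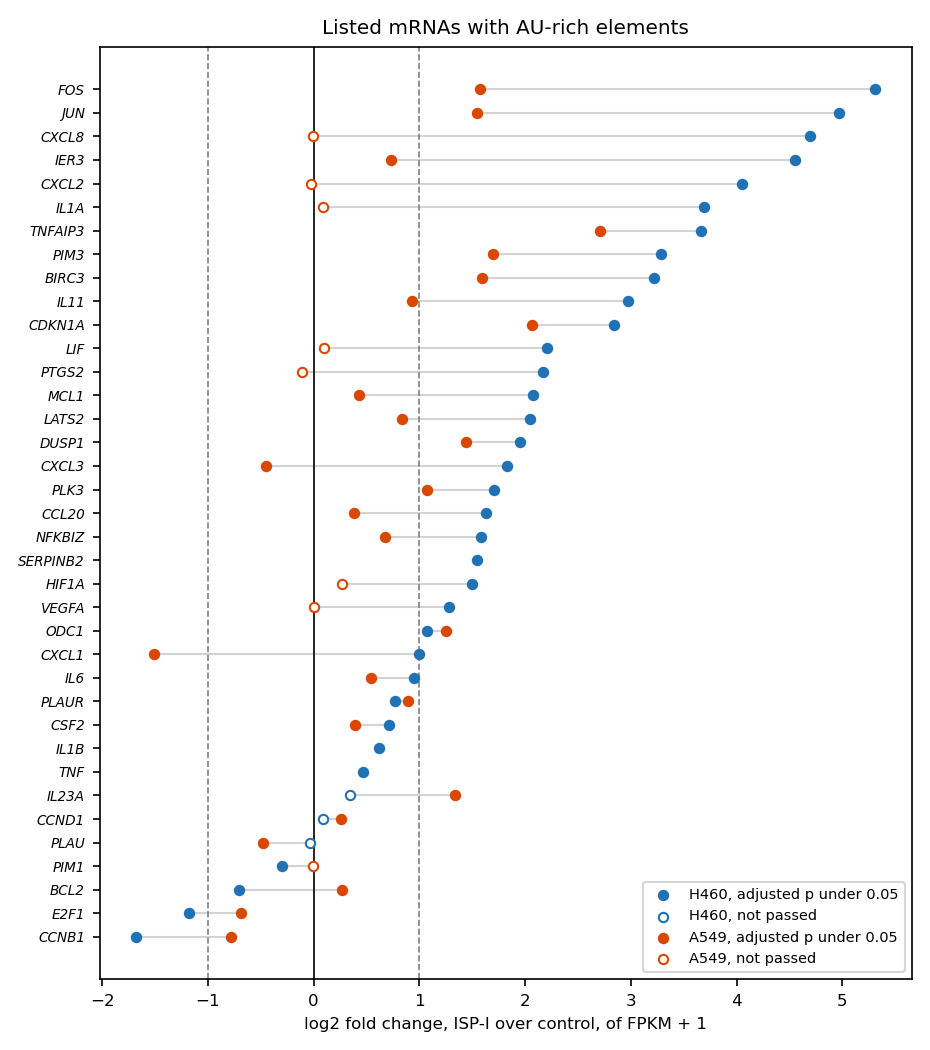
Log2 fold change of FPKM + 1, ISP-I over control (x axis), of the 37 listed AU-rich element mRNAs tested in H460 (y axis, ordered by H460), with the A549 value where tested. Filled points passed at an adjusted p under 0.05, empty ones did not, and dashed lines mark 2-fold. FOS, JUN and CXCL8 lead in H460 at 5.31, 4.97 and 4.69, and CXCL8 lies at -0.01 in A549.

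Of 14 mRNAs known as targets of Regnase-1 or Roquin, 9 of 12 tested rose in H460, 1 fell and 2 did not pass, with a median of 1.29. Over all genes in H460, 27.6% rose and 41.5% fell, with a median of -0.15. Several of the 14 stand on both lists, so the counts partly repeat those above. IER3, an immediate early gene, went from 32.4 ± 6.68 to 771.1 ± 43.6 FPKM (4.55, SE 0.175, limma adjusted p = 3.60e-07). CXCL2, another neutrophil chemokine, went from 32.4 ± 1.44 to 583.2 ± 244.1 FPKM (4.05, SE 0.258, limma adjusted p = 3.22e-06), with a wide spread after ISP-I. ID1, an inhibitor of helix-loop-helix factors, fell from 282.9 ± 32.7 to 16.6 ± 4.43 FPKM (-4.04, SE 0.199, limma adjusted p = 1.06e-06).

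In A549, 3 of 11 tested rose, 4 fell and 4 did not pass, with a median of -0.11. Over all genes in A549, 30.5% rose and 27.0% fell, with a median of 0.02. ID1 fell there too, from 204.6 ± 10.3 to 44.2 ± 6.24 FPKM (-2.19, SE 0.107, limma adjusted p = 2.16e-06). CXCL1, a chemokine close to CXCL2, fell from 21.0 ± 1.96 to 6.74 ± 0.888 FPKM (-1.51, SE 0.105, limma adjusted p = 1.18e-05) and rose in H460 from 150.6 ± 10.8 to 312.5 ± 106.9 FPKM (1.0, SE 0.233, limma adjusted p = 0.00487). The difference of 2.51 between the lines passed (SE 0.269, limma interaction adjusted p = 1.08e-05). CXCL2 stood at 10.1 ± 0.210 and 9.96 ± 0.0646 FPKM in A549 (-0.02, limma adjusted p = 0.758). IER3 rose in A549 (0.73, limma adjusted p = 0.000377).

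The enzymes that carry out the decay moved in both directions. The counts of the lists from here on stand beside the same shares of all genes, for H460 27.6% higher and 41.5% lower, for A549 30.5% higher and 27.0% lower. Of 19 deadenylation genes, 8 rose, 7 fell and 4 did not pass in H460 (median 0.06), and 5 rose, 4 fell and 10 did not pass in A549 (median -0.07). In H460, CNOT4, a ubiquitin ligase linked to the CCR4-NOT complex, went from 5.05 ± 0.317 to 24.7 ± 5.73 FPKM (2.07, SE 0.168, limma adjusted p = 1.14e-05). BTG1, which recruits deadenylases, went from 5.48 ± 0.747 to 17.9 ± 1.60 FPKM (1.55), and PAN2, a poly(A) nuclease, from 6.34 ± 0.443 to 17.0 ± 2.38 FPKM (1.29), each at a limma adjusted p under 0.05. In A549 BTG2, the close relative of BTG1, rose from 5.60 ± 0.384 to 16.7 ± 1.27 FPKM (1.42, SE 0.0826, limma adjusted p = 4.94e-06). BTG2 also rose in H460 (0.80), and BTG1 (0.91) and CNOT4 (0.93) also rose in A549, each at a limma adjusted p under 0.05. PAN2 did not pass in A549 (-0.09).

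Of 17 genes for decapping and 5′ to 3′ decay, 5 rose, 5 fell and 7 did not pass in H460 (median -0.05), and 5 rose, 1 fell and 11 did not pass in A549 (median 0.24). LSM2, a subunit of the ring that activates decapping and also serves splicing, fell in H460 from 37.1 ± 5.74 to 7.95 ± 1.33 FPKM (-2.09, SE 0.158, limma adjusted p = 7.69e-06). DCP1A, a decapping activator, rose from 8.16 ± 0.0993 to 23.7 ± 4.86 FPKM (1.41, SE 0.154, limma adjusted p = 6.15e-05). DCP1A rose in A549 too (0.54, limma adjusted p = 0.00074), where LSM2 did not pass (-0.35). Of 17 genes of the exosome and SKI complex, 3 rose, 5 fell and 9 did not pass in H460 (median -0.29), and 9 rose, 0 fell and 8 did not pass in A549 (median 0.38). DIS3, a catalytic exonuclease of the exosome, rose in H460 from 3.05 ± 1.03 to 9.95 ± 4.15 FPKM (1.40, SE 0.289, limma adjusted p = 0.00248), with a wide spread in both groups. DIS3 did not pass in A549 (0.62, limma adjusted p = 0.0517). No gene of either list changed by more than 2-fold in A549.

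Of 18 other binding proteins and paralogs, 5 of 15 tested rose, 3 fell and 7 did not pass in H460 (median -0.09), and 5 of 15 rose, 4 fell and 6 did not pass in A549 (median 0.08). ZC3H12C, a paralog of ZC3H12A, rose in H460 from 1.92 ± 0.362 to 13.7 ± 3.64 FPKM (2.30, SE 0.195, limma adjusted p = 1.39e-05). ARID5A, which protects stem-loop mRNAs from Regnase-1, rose from 2.26 ± 0.219 to 6.82 ± 0.835 FPKM (1.26, SE 0.123, limma adjusted p = 3.11e-05). ZC3H12C (0.72, limma adjusted p = 0.000252) and ARID5A (0.43, limma adjusted p = 0.0235) rose in A549 too. Of 15 stress granule genes, 4 rose, 3 fell and 8 did not pass in H460 (median -0.05), and 3 rose, 6 fell and 6 did not pass in A549 (median -0.18). PABPC4, a cytoplasmic poly(A) binding protein, fell in H460 from 33.3 ± 1.40 to 13.2 ± 1.80 FPKM (-1.28, SE 0.127, limma adjusted p = 3.51e-05). It fell in A549 too (-0.38, limma adjusted p = 0.00144).

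The p38-MK2 kinases phosphorylate ZFP36 and thereby hold back its action, and dual-specificity phosphatases switch p38 off. Of 15 genes of this route, 7 rose and 8 fell in H460 (median -0.49), and 5 rose, 5 fell and 5 did not pass in A549 (median 0.08). MAP2K3, a kinase that activates p38, went in H460 from 34.8 ± 3.83 to 168.9 ± 12.2 FPKM (2.25, SE 0.132, limma adjusted p = 2.19e-06) and from 23.3 ± 3.47 to 51.6 ± 1.5 FPKM in A549 (1.12, SE 0.10, limma adjusted p = 4.24e-05). DUSP1, a phosphatase of p38, went in H460 from 15.2 ± 1.25 to 62.5 ± 14.1 FPKM (1.95) and from 79.1 ± 7.91 to 216.2 ± 8.0 FPKM in A549 (1.44), and is on the AU-rich element list as well. MAPK12, the gamma form of p38, fell in H460 from 8.44 ± 0.927 to 1.54 ± 0.0569 FPKM (-1.89, SE 0.115, limma adjusted p = 2.63e-06). Of the other p38 genes in H460, MAPK11 (-1.76) and MAPK14 (-1.20) also fell and MAPK13 rose (0.42), each at a limma adjusted p under 0.05. MAPKAPK2, the gene of MK2, rose in H460 from 15.7 ± 0.599 to 29.6 ± 3.28 FPKM (0.87, limma adjusted p = 0.000239). Its relative MAPKAPK3 fell there (-0.54, limma adjusted p = 0.0112). In A549 MAPKAPK2 (0.08), MAPKAPK3 (0.17) and MAPK12 (-0.03) did not pass. MAP2K6, the other activator of p38, fell in A549 from 2.47 ± 0.327 to 0.433 ± 0.0761 FPKM (-1.27, SE 0.0901, limma adjusted p = 1.28e-05). It fell in H460 too, from 0.974 ± 0.106 to 0.104 ± 0.0294 FPKM (-0.84, SE 0.0701, limma adjusted p = 1.31e-05). Phosphorylation was not measured.

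**Figure D5:**
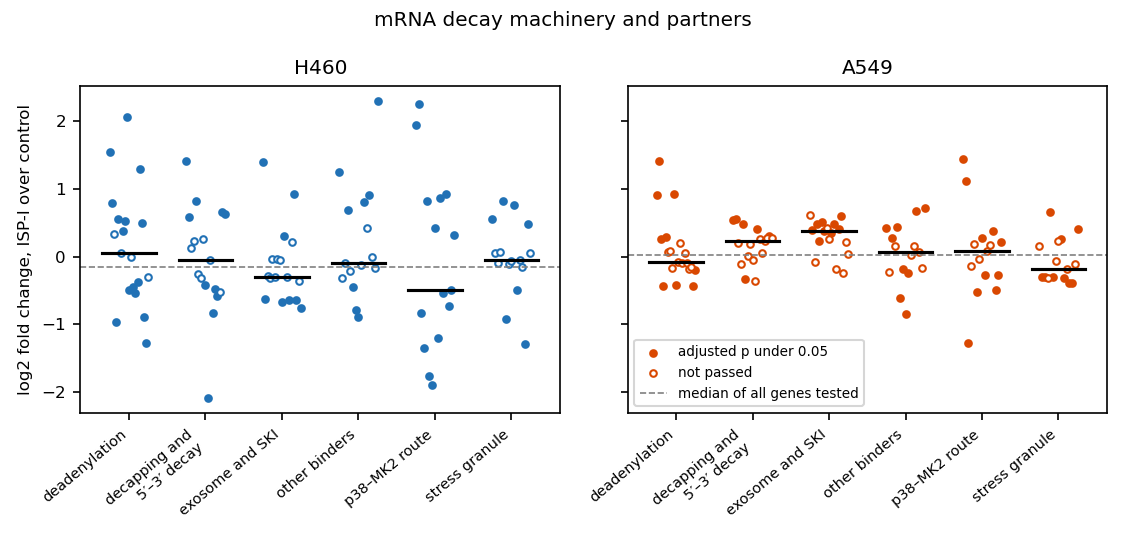
Log2 fold change of FPKM + 1, ISP-I over control (y axis), of each tested gene in 6 lists (x axis) in H460 (left) and A549 (right). Filled points passed at an adjusted p under 0.05, black lines are list medians and the dashed line is the median of all genes tested. The H460 medians lie between -0.49 and 0.06 and the A549 medians between -0.18 and 0.38, with single genes past 2-fold in either direction.

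Of the 10592 genes averaging 1 FPKM or more, those whose log2 values ran most like ZFP36 over the 12 libraries were VGF (Pearson r = 0.996), PIM3 (0.993) and PPP1R18 (0.992). VGF, a secreted neuropeptide precursor, had group means of 28.7 and 2506.4 FPKM in H460 and 3.23 and 75.2 FPKM in A549, control first. Nearest to ZC3H12A were FAM214B (0.996), IRX5 (0.995) and PER1 (0.994), and the period gene PER1 went from 4.0 to 42.8 FPKM in H460 and stood at 2.15 and 2.14 FPKM in A549. Nearest to ZFP36L1 were FGFR1 (0.997), AXL (0.997) and DCBLD2 (0.994). Like ZFP36L1, the receptor kinase AXL was low in H460 controls at 9.69 FPKM, higher after ISP-I at 44.2 FPKM, and high in A549 at 161.5 and 150.3 FPKM. These correlations describe 4 groups of libraries that share line, treatment and depth, and carry no test.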

How the data were processed

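RNA-seq libraries (TruSeq, paired-end) were mapped by the authors to hg38 with HISAT2 after FastQC filtering and counted on genes with HTSeq 0.9.1. The deposited values are FPKM, made by the authors from counts by dividing by gene length and the reads of the library. Annotation version and strand setting are not given in the sources used here. Of 19977 lines, 4 without a gene were left out. FPKM times length gave whole reads (within 0.01 read), and these recovered counts gave the depth of 14225849 to 17874422 reads.

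Columns name line and treatment beside a running number, so libraries were grouped by line and treatment and numbered in column order as names. Groups were compared with limma 3.58.1 (R 4.3.3, moderated with a mean trend) on log2(FPKM + 1) for genes averaging 0.1 FPKM or more in the fit, with Benjamini-Hochberg adjustment over all genes tested, a threshold of 0.05, and 2-fold for differential expression. The pseudocount understates changes of low genes. The fit was tested on simulated reads with a single spread for all genes and groups. The groups here differed in spread, so the simulation does not show how the fit behaves on them. Alternatives were a pseudocount of 0.1, a minimum of 1 FPKM, no filter, median-of-ratios scaling, limma voom on recovered reads, 1 fit over all 12 libraries, and the omission of each library in turn.

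The members and lists were chosen with earlier results of these data known. Named from the lists were up to 3 genes per list and line with the largest change past 2-fold and a mean of at least 1 FPKM, and, for the 3 members that changed most, the 3 genes with the highest Pearson r. ZFP36L1 and the other members share no symbol with another gene. Protein sequences were not used here.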

Additional observations from a re-analysis of the deposited data

Results flagged for a closer look

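For 7 members the response to ISP-I differed between H460 and A549 by limma's interaction term, over 3 libraries in each group. The H460 response minus the A549 response, on the log2 scale, was 0.75 for ZFP36, 1.5 for ZFP36L1, 1.01 for ZFP36L2, 1.95 for ZC3H12A, 0.66 for RC3H1, 0.42 for TIAL1 and -0.66 for ELAVL1. Of all 13953 genes, 18.6% had a higher and 34.7% a lower response in H460 by the same test, and the median difference was -0.16. TIAL1 stood at 0.22 in H460, where it did not pass, and at -0.20 in A549.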

How the results depend on the processing

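No paired analysis was possible because the columns carry no replicate numbers of the labels. Median-of-ratios scaling moved the median of all genes in H460 from -0.15 to 0.02 on the log2 scale, and the genes past 2-fold from 1409 higher and 2047 lower to 1928 and 1441. With voom they were 3106 and 2728, and with a pseudocount of 0.1 2322 and 3464. In A549 575 higher and 481 lower became 1354 and 1239 with voom and 1336 and 1062 with the pseudocount of 0.1. Between the controls, 763 higher and 1188 lower became 1476 and 2290 with voom and 1363 and 2251 with that pseudocount. For the difference between the lines, 827 and 1407 became 1300 and 827 with median-of-ratios scaling, 2117 and 1906 with voom, and 1451 and 2788 with that pseudocount.

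No member changed direction where it had passed. ELAVL1 in H460 was -0.85 with median-of-ratios scaling and -0.89 with voom, so under each of these 0 members were past 2-fold lower. KHSRP in H460 lost its call with median-of-ratios scaling (limma adjusted p = 0.0501) and kept it with voom (-0.34, 0.0328). TIAL1 in H460 passed with median-of-ratios scaling, with voom (0.53, 0.00235) and in the single fit (0.22, 0.0191). With voom 5 members, in place of 3, had a response more than 2-fold higher in H460 than in A549. Leaving out single libraries, that number was 2 to 3, since ZFP36L2 fell under 2-fold (0.90 to 0.99) without H460 control 1 or 2, A549 control 1 or 2, or A549 ISP-I 3. RC3H1 passed between the controls without A549 control 3 (-0.25, limma adjusted p = 0.0358), which made 3 members lower in place of 2. In A549, 3 to 4 members fell. MAP2K6, low in both lines, had a difference between the lines of 0.43, and of -0.13 with a pseudocount of 0.1 and -0.41 with voom, neither past the threshold.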
